A study of Nicotiana tabacum with 12 samples.

Results

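Among 25273 root gene models of tobacco (Nicotiana tabacum), 46 were lower in TWTR than in WTR libraries and higher in TCR than in CR libraries. TCR, CR, TWTR and WTR are the codes that the sample titles give to 4 groups of 3 RNA sequencing libraries each. They are built on 2 stems, WTR and CR, each with and without a T in front. The members are models whose difference with the T has opposite signs on the 2 stems, and whose level without the T was lower in CR than in WTR.

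The samples are whole roots from a series titled as a study of an Ntlht1 mutation and tolerance of low nitrogen. Every sample, whatever its code, carries one protocol text, which describes an NtLHT1 mutant kept for 15 days in a hydroponic solution abbreviated LN. The labels do not spell out the codes, so no genotype, treatment, nitrogen supply, mutant allele or plant age was assigned to a group, and the T is used only as a letter. Nothing says that replicates came from separate plants. Any p-value therefore speaks of the spread among libraries alone, and that spread may be technical.

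LHT1 proteins are carriers of the plasma membrane that take up amino acids, a source of organic nitrogen for roots. Roots short of nitrogen are known to alter the expression of genes for nitrogen uptake, assimilation and internal transfer. Tobacco is an allotetraploid, so many of its genes exist as near-identical copies, one from each parental genome. Whether any of the 46 models takes part in these processes is unknown here. The deposited table does not pair its identifiers with gene names, and 0 of 25273 matched an entry of the gene table that RefSeq gives for assembly ASM71507v2. No function is given to any of them, no sequence could be shown, and root marker genes and NtLHT1 itself could not be looked up. Reads shared by near-identical copies may have been split between models in a way that the table does not record.

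The members were chosen on the deposited FPKM, which are fragments scaled to transcript length and to the mapped total of the library. A level is the group mean of log2(FPKM + 1), and every log2 difference below is a difference of such levels. Of the models in the table, 15588 had a mean over the 12 libraries of at least 5 and under 1000 FPKM. In 1045 of them TWTR lay at least 0.6 below WTR, and in 80 of these TCR also lay at least 0.6 above CR. CR lay at least 0.6 below WTR in 70 of the 80. In 60 of those, every TWTR value was below every WTR value and every CR value below every TCR value. The last criteria set aside 4 models in which TCR stayed 1 or more below WTR, and then 10 in which CR and TWTR were 1 or more apart, which left 46.

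Most models that were lower in TWTR than in WTR were also lower, or little different, in TCR beside CR. Among the 1045 models at least 0.6 lower in TWTR than in WTR, 80 were at least 0.6 higher in TCR than in CR, which is 7.66%, against 8.19% of the 15588 models of the same level range. In contrast, 552 of the 1045 (52.8%) were at least 0.6 lower in TCR than in CR, against 10.9% of the 15588. The members thus come from a minority of the models that were lower in TWTR. The mirror image of the rule, with every sign turned, was met by 77 models.

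**Figure D1:**
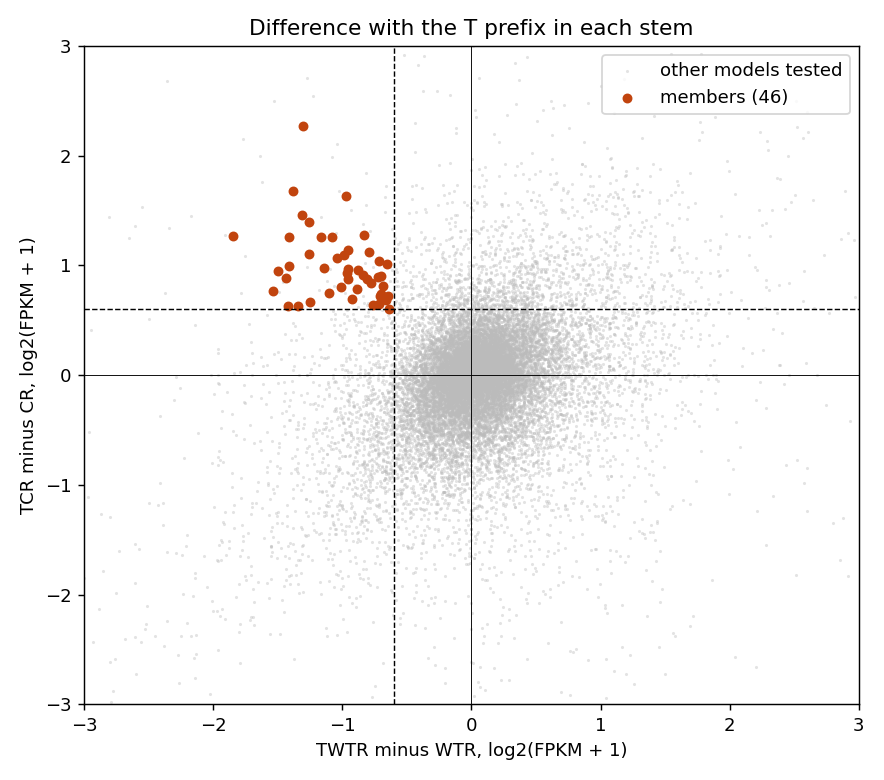
Each point is a gene model averaging 1 FPKM or more, with its TWTR minus WTR difference on the x axis and its TCR minus CR difference on the y axis, both in log2(FPKM + 1). The 46 members lie at the upper left, beyond the dashed lines at the size threshold of 0.6, while most other models lower in TWTR lie below the line; 77 models fall outside the range drawn.

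The values of the rule's own contrasts are descriptions, because they chose the members. Calls of single models in these contrasts are given further below, and nothing is read from them. On the WTR stem the log2 difference of TWTR minus WTR ran over the members from -1.85 to -0.64, with a median of -0.96, which is 0.513 times the WTR value on the FPKM + 1 scale (as are the ratios below). On the CR stem TCR minus CR ran from 0.60 to 2.27, with a median of 0.92, or 1.90 times the CR value. CR minus WTR ran from -2.10 to -0.76, with a median of -1.25. Over all 19929 models tested the 3 medians were 0.04, -0.01 and 0.04. In whole roots, a lower value cannot be told apart from fewer cells of the type that holds the transcript.

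At the median of the members, the differences with the T were of like size on the 2 stems. From member to member the sizes of fall and rise went together only loosely, with correlations of 0.35 (Pearson) and 0.37 (Spearman, by ranks). The choice of members shapes these values, which are descriptions. TWTR was at or below 1 log2 unit under WTR, a halving, in 20 members, and TCR was at least doubled over CR in 17, with 10 members in both sets. The fall in TWTR was the larger in 20 members and the rise in TCR in 26, and the sizes were less than 0.25 apart in 30. The rule limits how far the fall can exceed the rise, but not how far the rise can exceed the fall. CR was at least halved against WTR in 36 members, and the CR deficit exceeded the TWTR deficit in 40.

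The threshold values left little room around some members and much around others. The smallest WTR excess over TWTR among the members was 0.64, while a model meeting every other criterion had 0.5998. For TCR minus CR the nearest values were 0.6002 inside and 0.595 outside, and for the WTR excess over CR 0.76 inside and 0.55 outside. In WTR minus TCR they were 0.92 inside and 1.21 outside. In CR minus TWTR they were -0.81 inside and -1.06 outside at the lower bound, and 0.65 inside with no model outside at the upper. The lowest and highest 12-library means were 6.18 and 864 FPKM inside, and 4.03 and 1619 FPKM outside. The criterion on TWTR alone kept out 86 models, that on TCR over CR alone 45, and that on CR under WTR alone 5.

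The median level of the members set the 4 groups apart. It was 41.2, 38.3 and 40.4 FPKM in the TCR libraries and 18.4, 19.6 and 19.1 in the CR libraries. It was 23.5, 27.8 and 27.5 in the TWTR libraries and 54.7, 55.7 and 52.4 in the WTR libraries. The 4 groups did not overlap, with WTR highest, TCR next, then TWTR, and CR lowest. The rule set WTR above TWTR and CR, and TCR above CR, in every member. This order and the counts below therefore follow in part from the choice and are descriptions. Each member was centred on its own mean over the 12 libraries. From 43 to 45 of the 46 members were then above their mean in a TCR library, 0 to 2 in a CR library, 1 to 5 in a TWTR library and 45 to 46 in a WTR library.

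**Figure D2:**
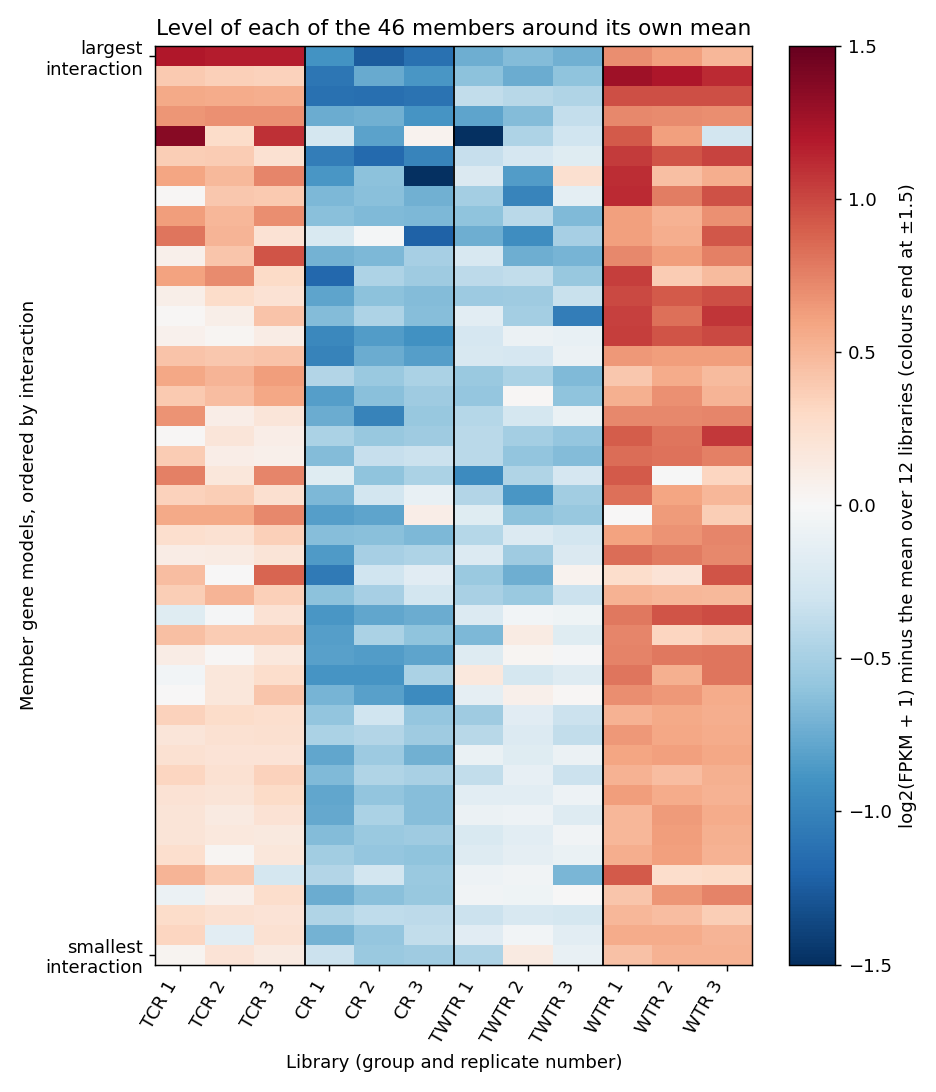
Each row is 1 of the 46 members and each column 1 library; colour gives log2(FPKM + 1) minus the member's mean over the 12 libraries, with colours ending at ±1.5. TCR and WTR columns are mostly red (above the mean) and CR and TWTR columns mostly blue, with CR darker than TWTR in most rows; 2 values, in CR replicate 3 and TWTR replicate 1, lie beyond the colour range.

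Spread within groups is limited by the rule, which asks for separate libraries of TCR and CR and of TWTR and WTR, and is given only as a description. The median SD of log2(FPKM + 1) was 0.0837 in TCR, 0.124 in CR, 0.119 in TWTR and 0.0699 in WTR, against 0.0838, 0.111, 0.119 and 0.0960 over the 15588 models of the level range, which were not matched to the members by level. The median deviation of the members from their group mean was furthest from 0 in CR replicate 1, at -0.07, and TWTR replicate 1, at -0.04, and lay between -0.02 and 0.04 in the other libraries. CR replicate 2 appeared to be sequenced deeper than the rest, by an estimate from the ratios of low values. Relative to CR replicate 1 its estimated depth came to 1.83, and that of the remaining 10 libraries to 0.914 to 1.14. Without CR replicate 2 the rule gave 48 models, 44 of them among the 46. The number of fragments is not known, so no counting interval is given.

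The members covered the whole level range allowed. Their 12-library mean had a median of 35.4 FPKM, and none was at 0 in any library. A mean of 5 to 10 FPKM was found in 7 members, 10 to 50 in 20, 50 to 100 in 7 and 100 to 1000 in 12. These are 0.236%, 0.242%, 0.318% and 0.558% of all models in those ranges. The median interaction, which is TCR minus CR less TWTR minus WTR, was 1.84, 2.06, 1.98 and 1.74 in the same order of levels.

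Calls from limma, a linear model with moderated variances fitted to the 19929 models that averaged 1 FPKM or more, are given only beside the share of all models called, at an adjusted p under 0.05. These models were not matched to the members by level. In TWTR minus WTR 45 of the 46 members were called lower, where 14.9% of all models were called lower. In TCR minus CR 44 were called higher, where 19.6% of all models were. In CR minus WTR 45 were called lower, where 16.6% of all models were, and in the interaction all 46 were called higher, where 11.5% were. The rule used these contrasts, so nothing is read from the counts. The member not called in TWTR minus WTR and in CR minus WTR was Nitab4.5_0000305g0110. It and Nitab4.5_0000255g0320, which was picked out only after its values were seen, were not called in TCR minus CR. Nitab4.5_0000255g0320 was at 9.65, 8.79 and 5.22 FPKM in TCR against 4.50, 5.18 and 4.07 in CR, so that its TCR replicate 3 lay just above CR replicate 2.

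The largest interaction was that of Nitab4.5_0001176g0080. It stood at 45.58, 44.96 and 45.17 FPKM in TCR, 9.90, 7.58 and 8.34 in CR, 11.28, 12 and 11.30 in TWTR, and 31.92, 30.22 and 27.66 in WTR. The TCR libraries lay above all others, WTR came next, and CR and TWTR were low and did not overlap. Its log2 difference was 2.27 in TCR minus CR, the largest rise of any member, and -1.30 in TWTR minus WTR (SE 0.0882 each), with an interaction of 3.58 (SE 0.125). It was the only member in which every TCR library exceeded every WTR library, with a TCR minus WTR difference of 0.58 (SE 0.0882).

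Nitab4.5_0005259g0010 had the largest fall in TWTR minus WTR and in CR minus WTR. Its values were 46.35, 45.11 and 44.67 FPKM in TCR, 15.96, 20.39 and 18.70 in CR, 22.59, 20.47 and 22.78 in TWTR, and 85.72, 82.26 and 77.03 in WTR. All 4 groups were separate, although the highest CR value fell just short of the lowest TWTR value. The log2 differences were -1.85 in TWTR minus WTR, -2.10 in CR minus WTR and 1.27 in TCR minus CR (SE 0.0827 each). TCR stood 60.3% of the way from CR to WTR on the log2 scale.

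Nitab4.5_0004599g0060 was the most abundant member and had the second-largest rise in TCR minus CR. It was at 1100.25, 1097.62 and 1090.26 FPKM in TCR, 343.17, 340.34 and 344.81 in CR, 576.47, 557.63 and 545.39 in TWTR, and 1453.23, 1457.9 and 1460.92 in WTR. Replicates were close and the groups far apart, in the order WTR, TCR, TWTR, CR. TCR minus CR was 1.67, TWTR minus WTR -1.38 and CR minus WTR -2.08 (SE 0.0375 each). The next most abundant member, Nitab4.5_0001193g0010, spread more, at 689.47, 642.2 and 759.82 FPKM in TCR, 249.03, 297.89 and 149.57 in CR, 393.89, 254.63 and 542.2 in TWTR, and 989.47, 628.37 and 667.8 in WTR. Its TCR and WTR values overlapped, and so did its CR and TWTR values. Its TCR minus CR difference was 1.64 and its TWTR minus WTR difference -0.98 (SE 0.314 each).

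**Figure D3:**
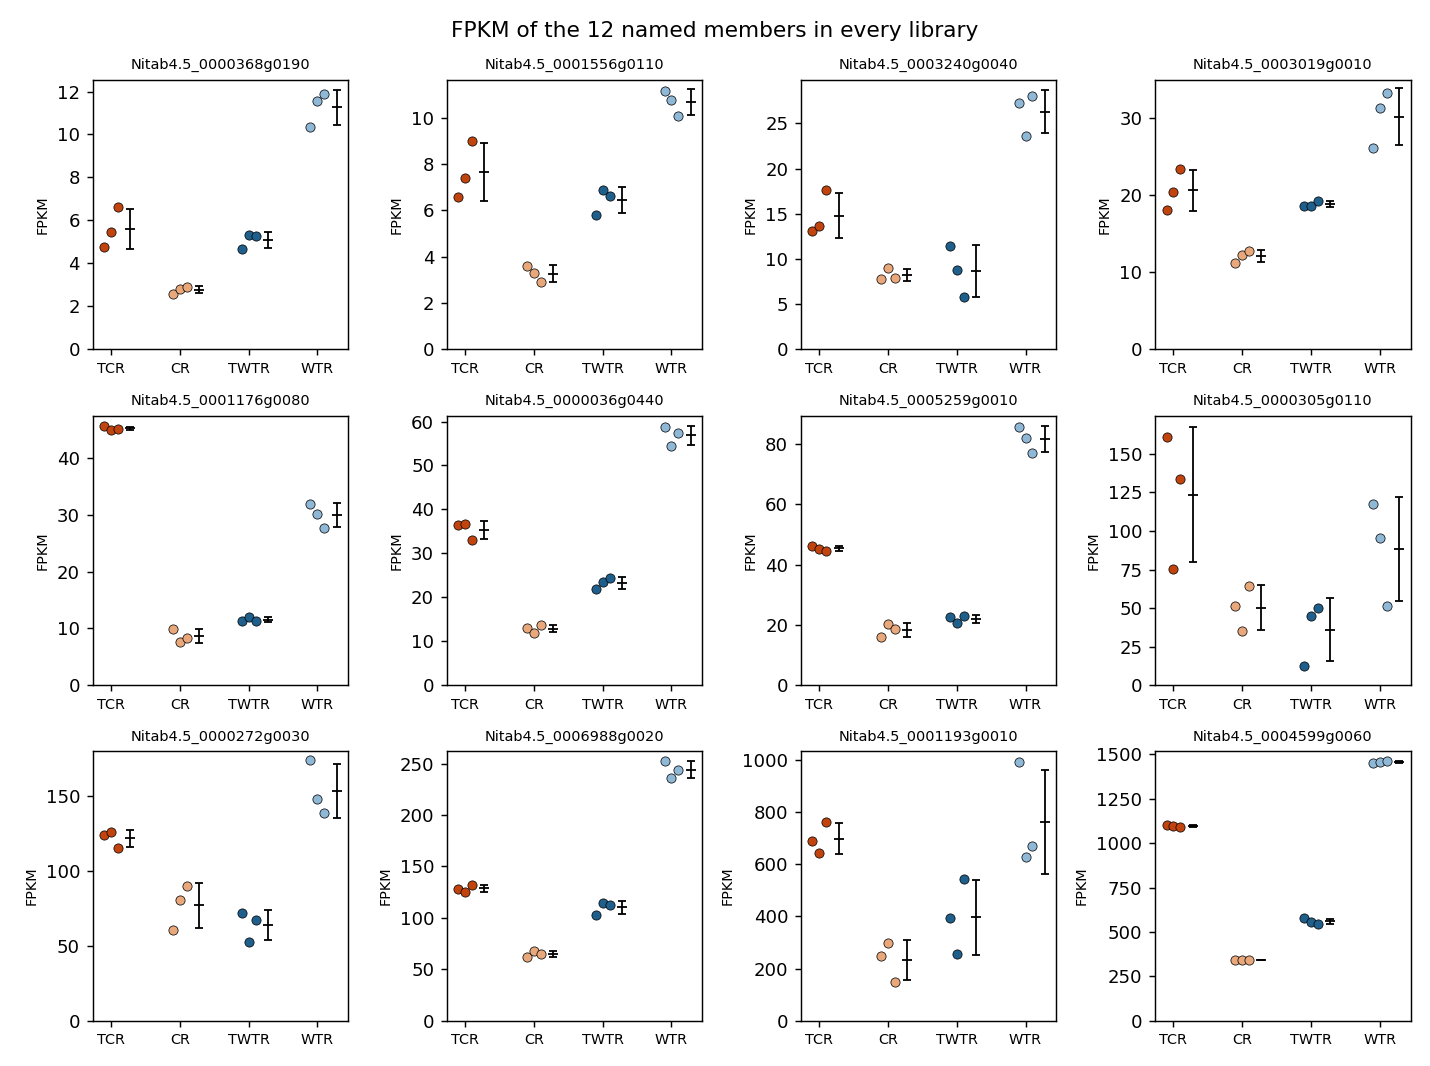
FPKM on the y axis of each panel, from 0, for the 12 members named by the rule, in order of mean level; points are libraries, and the black bar beside them is the group mean ± SD (n = 3). In each panel every TCR point lies above every CR point and every TWTR point below every WTR point, while the height of TCR beside WTR and of CR beside TWTR differs between members.

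In Nitab4.5_0003240g0040, which had the second-largest fall on the WTR stem, CR and TWTR overlapped. It was at 13.07, 13.67 and 17.64 FPKM in TCR, 7.79, 9.02 and 7.86 in CR, 11.45, 8.74 and 5.76 in TWTR, and 27.29, 23.57 and 28.03 in WTR. TWTR minus WTR was -1.54, TCR minus CR 0.77 and CR minus TWTR -0.02 (SE 0.188 each). The last of these rested on single libraries: it was 0.18 without TWTR replicate 1 and -0.26 without TWTR replicate 3, and between -0.08 and 0.01 without another CR or TWTR library. TCR was clear of both low groups and of WTR, and stood 49.1% of the way from CR to WTR on the log2 scale.

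Nitab4.5_0000305g0110 was the least steady named member. It was at 161.27, 75.4 and 133.5 FPKM in TCR, 51.42, 34.96 and 64.15 in CR, 12.44, 44.72 and 50.32 in TWTR, and 117.76, 95.51 and 51.19 in WTR. The highest TWTR value lay just under the lowest WTR value, CR overlapped both TWTR and WTR, and TCR overlapped WTR. TWTR minus WTR was -1.42 (SE 0.546) and came to -0.80 without TWTR replicate 1. CR minus TWTR was 0.65 (SE 0.546), the highest of the members, and came to 0.04 without that library. TCR minus TWTR was 1.91 (SE 0.546), also the highest, and 1.29 without it.

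The rule bounds the remaining contrasts without fixing them: WTR may exceed TCR by less than 1, and CR and TWTR must lie within 1 of each other. TCR minus WTR ran from -0.92 to 0.58 with a median of -0.37, which is 0.772 times the WTR value, and TCR was the lower in 40 members. CR minus TWTR ran from -0.81 to 0.65 with a median of -0.28, which is 0.825 times the TWTR value, and CR was the lower in 40. The medians over all models tested were 0.02 and -0.01. Of those 19929 models, TCR was below WTR in 9250 and CR below TWTR in 10183. The full order WTR, TCR, TWTR, CR from high to low was seen in 37 members, and each of 3 other orders in 3. The rule set WTR above TWTR and CR, and TCR above CR, so the count of 37 follows in part from the choice.

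The libraries of TCR and WTR overlapped in 14 members. Shares of all models in this and the following paragraphs are over the 19929 tested, which were not matched to the members by level. TCR lay wholly below WTR in 31, where 19.7% of all models did so, and wholly above it in 1, where 24.8% did. CR lay wholly below TWTR in 23, where 27.8% of all models did so, wholly above it in 0, where 26.9% did, and overlapped it in 23. In 22 members TCR lay wholly below WTR and CR wholly below TWTR, where 3.67% of all models did so, and in 14 both pairs overlapped, where 29.7% did. By limma, TCR was called lower than WTR in 26 members and higher in 1, where 11.2% and 15.7% of all models were called. CR was called lower than TWTR in 25 and higher in 0, where 24.3% and 24.4% were called. Choosing for high WTR values and low CR values sets these directions in part, so the counts are descriptions.

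**Figure D4:**
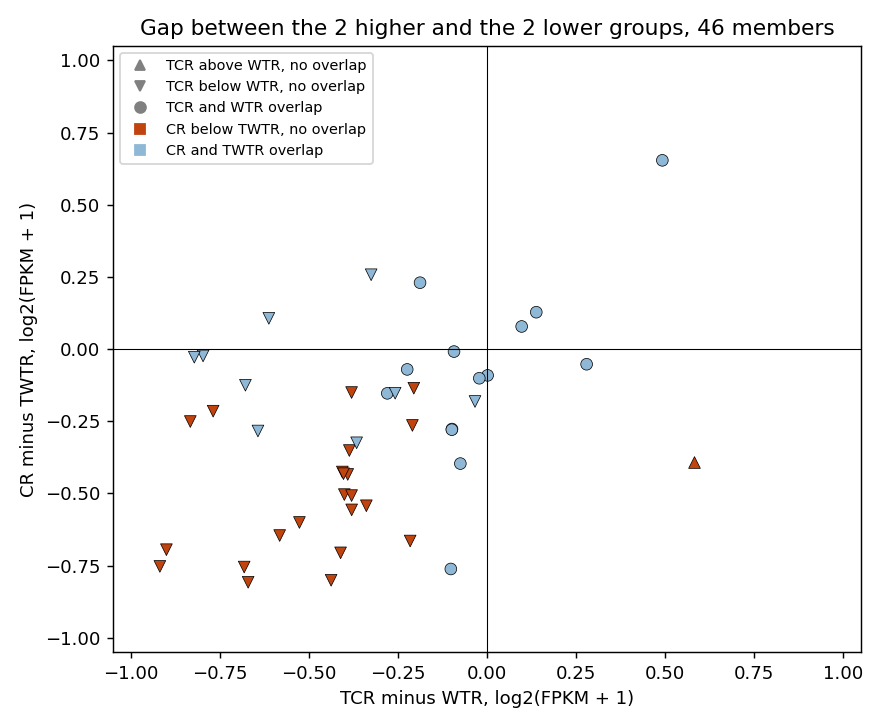
Each point is 1 of the 46 members, with TCR minus WTR on the x axis and CR minus TWTR on the y axis, in log2(FPKM + 1). Triangles mark members whose TCR and WTR libraries do not overlap (pointing down where TCR is lower, up where it is higher), red marks CR libraries wholly below TWTR, and most points lie at the lower left.

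On the log2 scale TCR stood a median of 70.5% of the way from CR to WTR, with members between 43.2% and 165%. The rule used or bounded every difference in this share and so keeps it from being small. It is a description only. TCR stood within 0.25 of WTR in 15 members, CR within 0.25 of TWTR in 18, and both held in 9. Over all models tested the quartiles were -0.157 and 0.237 in TCR minus WTR, and -0.299 and 0.329 in CR minus TWTR. In most models tested TCR therefore lay within 0.25 of WTR, against 32.6% of the members. TCR was 0.5 or more below WTR in 13. The lowest TCR minus WTR values belonged to Nitab4.5_0006988g0020 and Nitab4.5_0000368g0190. The first was at 128.19, 125.36 and 132.38 FPKM in TCR against 252.26, 235.68 and 244.18 in WTR, a difference of -0.92 (SE 0.0560), with 62.18, 68.04 and 64.8 in CR and 102.93, 114.95 and 112.95 in TWTR. TCR was therefore nearer to TWTR than to WTR. The second was at 4.77, 5.45 and 6.6 FPKM in TCR, 2.58, 2.80 and 2.90 in CR, 4.67, 5.34 and 5.26 in TWTR, and 10.35, 11.57 and 11.88 in WTR, a TCR minus WTR difference of -0.90 (SE 0.118).

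CR lay furthest below TWTR in Nitab4.5_0000036g0440 and Nitab4.5_0001556g0110. The first was at 13.05, 11.88 and 13.59 FPKM in CR against 21.83, 23.39 and 24.43 in TWTR, a difference of -0.81 (SE 0.0711), with 36.5, 36.6 and 32.98 in TCR and 58.69, 54.45 and 57.35 in WTR. Its 4 groups were all separate. The second was at 3.61, 3.28 and 2.91 FPKM in CR against 5.81, 6.88 and 6.6 in TWTR, a difference of -0.80 (SE 0.121), with 6.56, 7.41 and 9.01 in TCR and 11.16, 10.76 and 10.05 in WTR. On these low levels the pseudocount weighs: with 5 in place of 1, TCR minus CR of Nitab4.5_0001556g0110 came to 0.61 in place of 1.01, and that of Nitab4.5_0000368g0190 to 0.45 in place of 0.80. At the other end, after the less steady model described above, the highest CR minus TWTR value was 0.26 (SE 0.147) in Nitab4.5_0000272g0030, at 60.72, 80.67 and 90.33 FPKM in CR against 71.77, 53.02 and 67.56 in TWTR. These libraries overlapped, and the value was 0.14 without CR replicate 3, 0.13 without TWTR replicate 2 and 0.42 without CR replicate 1. It had 124.21, 126.05 and 115.66 FPKM in TCR and 174.06, 148.1 and 138.72 in WTR.

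TCR was above TWTR on group means in all 46 members, from 0.11 to 1.91 with a median of 0.62, which is 1.54 times the TWTR value, against a median of -0.01 over all models tested. The rule leaves room only for a small deficit here, so the direction and the counts that follow are descriptions. TCR lay wholly above TWTR in 37 members, where 15.3% of all models did so, and overlapped it in 9. By limma 36 were called higher and 0 lower, where 7.00% and 6.69% of all models were called. The smallest differences were 0.11 (SE 0.118) in Nitab4.5_0000368g0190 and 0.12 (SE 0.105) in Nitab4.5_0003019g0010. Nitab4.5_0003019g0010 was at 18.14, 20.45 and 23.45 FPKM in TCR against 18.6, 18.57 and 19.29 in TWTR, with 11.2, 12.24 and 12.82 in CR and 26.14, 31.28 and 33.23 in WTR. TCR and TWTR overlapped in both models. With 1 library left out, Nitab4.5_0000368g0190 gave 0.20 (TCR replicate 1), 0.0043 (TCR replicate 3) or 0.06 (TWTR replicate 1), and Nitab4.5_0003019g0010 gave 0.21 (TCR replicate 1) or 0.03 (TCR replicate 3).

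CR and WTR libraries overlapped in only 2 members. CR lay wholly below WTR in the other 44, where 22.1% of all models did so. One of the 2 was Nitab4.5_0000305g0110, described above. The other, Nitab4.5_0004739g0050, was picked out after its values were seen, and was at 3.92, 4.06 and 8.39 FPKM in CR against 7.81, 12.63 and 10.3 in WTR, with 12.02, 12 and 13.36 in TCR and 6.74, 4.69 and 4.92 in TWTR. Its CR minus WTR difference was -0.85 (SE 0.239), and CR replicate 3 lay above WTR replicate 1. The rule asks for the difference between these groups but not for separate libraries. The count of 44 therefore follows in part from the choice and is a description.

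The members did not gather on a few scaffolds of the assembly. Each identifier holds a scaffold number and a gene number, and the 46 members lay on 45 of the 3170 scaffolds in the table. Only 1 scaffold held a pair, and no member had another member as its neighbour by gene number. The pair, Nitab4.5_0000185g0230 and Nitab4.5_0000185g0250, was picked out after this was seen. They were separated by 1 other model on a scaffold with 26 models in the table. The first was at 102.32, 84.13 and 82.29 FPKM in TCR, 49.42, 61.41 and 62.07 in CR, 59.03, 51.71 and 49.26 in TWTR, and 140.03, 137.95 and 132.53 in WTR. The second was at 34.87, 33.19 and 35.95 FPKM in TCR, 16.64, 15.32 and 16.26 in CR, 15.24, 16.16 and 14.15 in TWTR, and 30.61, 34.1 and 32.32 in WTR. CR and TWTR overlapped in both. TCR reached the WTR range in the second model and stayed below it in the first.

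Models next to a member had medians near 0. Of 77 adjacent models, 60 were tested, and their median difference was -0.0032 in TWTR minus WTR, 0.06 in TCR minus CR and -0.01 in the interaction. TWTR below WTR together with TCR above CR, on group means of any size, was seen in 14 of the 60 (23.3%), against 17.1% of all models tested.

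Set beside its mirror image, the pattern had medians of opposite sign in every contrast. The 46 members had a median TWTR minus WTR of -0.96, TCR minus CR of 0.92 and CR minus WTR of -1.25, against 0.89, -0.91 and 1.40 in the 77 mirror models. TCR minus WTR had a median of -0.37 in the members against 0.48 in the mirror models, and CR minus TWTR one of -0.28 against 0.50. At the median TCR lay on the WTR side of TWTR in both sets: TCR minus TWTR had a median of 0.62 in the members and -0.51 in the mirror models. Both sets were chosen on these values, so the difference between them was not tested.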

How the data were processed

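Root RNA of 12 libraries, 3 in each of 4 groups taken from the sample titles, was measured by sequencing. Per the labels' protocols, the authors cleaned reads with fastp, aligned them with STAR, assembled transcripts with StringTie2 and compared them with known genes by Cuffcompare. Build, annotation, quantification program and software versions are not given in the sources used here. The authors deposited FPKM, per the file headers, for 25273 gene models, summing to between 1099061 and 1154691 per library. FPKM depends on transcript length and on the library total, so a few abundant transcripts can shift all other values. Relative depth was read from the commonest ratio of low values (at least 0.2 FPKM) between libraries over models at 0 in at least 4 libraries. Absolute depth is unknown.

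Values were taken to log2(FPKM + 1), a scale that understates differences of low models. The 19929 models averaging 1 FPKM or more were fitted with limma 3.58.1 in R 4.3.3 (4 group means, trend and robust options), in 7 contrasts with Benjamini-Hochberg adjustment within each and a threshold of 0.05. The limma fit was also run on simulated data with normally distributed noise and some models raised in CR alone. Opposite differences on the 2 stems were not simulated, so that run does not speak to the members. The membership rule and the naming rule were applied in Python 3.11.15. The naming rule took the 2 members with the largest fall in TWTR minus WTR, rise in TCR minus CR, fall in CR minus WTR and interaction, the 2 highest and 2 lowest in TCR minus TWTR, TCR minus WTR and CR minus TWTR, and the 2 with the highest mean, 12 different models in all. The members, rules and alternatives were chosen with earlier results of these data known. The alternatives were pseudocounts, filters, scalings, left-out libraries, a replicate block and fits of the compared groups alone. DESeq2, which the series' design text names for the authors' own calls, needs counts and was not used here.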

Additional observations from a re-analysis of the deposited data

Results flagged for a closer look

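The difference with the T differed between the CR and WTR stems in 46 members by the interaction test of limma (adjusted p under 0.05), all with a higher value, where 11.5% of all models tested were called higher. The members were chosen for opposite differences on the 2 stems, so the count follows from the choice, and it is no independent evidence.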

How the results depend on the processing

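The number of models that met the rule was 46, and 50 and 38 with pseudocounts of 0.1 and 5, 47 after rescaling to TPM, 55 with median-of-ratios scaling, 54 with quantile normalization, 55 without the lower bound on the mean and 39 with a mean of at least 10 FPKM. It was 8 with a size threshold of 1 in place of 0.6. The 3 scalings kept all 46, and a pseudocount of 5 kept 34. On leaving out 1 library the number ran from 44 to 52, with 42 to 46 of the members kept. Over the fixed members, a pseudocount of 5 moved the median of TCR minus CR to 0.75, of CR minus WTR to -1.07 and of the interaction to 1.67, from 0.92, -1.25 and 1.92. A pseudocount of 0.1 moved the interaction to 2.115, and quantile normalization moved CR minus WTR to -1.33. None of the other medians, and no count of members called, moved by more than the replicate spread or 1.5 times under the alternatives run. Over all models, calls in TCR minus TWTR numbered 2729, and 1664 without TCR replicate 1, 1660 without TCR replicate 2 and 1803 without TWTR replicate 3; members called there were 28 to 35 on leaving out a library, against 36.

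The labels do not say that a replicate number marks shared plants or days. Deviations of same-numbered libraries from their group means correlated at -0.0888 to 0.0991, and 3 of 12 libraries correlated best with their own number. With the replicate block, 45 of the 46 members were called in the interaction (27.5% of all models in either direction), 35 in TCR minus TWTR (11.7%), 25 in TCR minus WTR (25.3%) and 21 in CR minus TWTR (47.2%). Without it the counts were 46 (29.3%), 36 (13.7%), 27 (26.9%) and 25 (48.7%) in the same order. In TWTR minus WTR, TCR minus CR and CR minus WTR the block gave 44, 45 and 45 (33.4%, 40.2% and 38.1%). Depth is unknown in absolute terms, so low models carry a counting error that cannot be stated.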
